A study of Mus musculus with 16 samples.

Results

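Untreated SPOP-mutant mouse prostate organoids were compared with normal organoids given androgen, to ask whether the mutation without ligand gives a chromatin state like that of androgen-treated normal organoids or another one. The comparison takes the 4 libraries of mutant organoids in ethanol (SPOPmut EtOH) and the 4 of normal organoids in dihydrotestosterone (Control DHT), 8 of the 16 libraries of the series. Organoids are cultures of prostate epithelium that keep several of its cell types. DHT, a strong natural androgen, was given at 10 nM for 24 h, and ethanol (EtOH) is its solvent. Both arms were kept for that time in organoid medium without the growth factor mEGF, and every library of the series carries the label sgNT. The labels give neither the SPOP allele, its promoter nor the number of mice or organoid lines. The p-values therefore measure the spread between these libraries, which may be technical. Genotype cannot be told apart from mouse or organoid line here. Differences described below as those of genotype or of the mutation carry that limit. The other 8 libraries, normal organoids in EtOH (Control EtOH) and mutant organoids in DHT (SPOPmut DHT), were used only to place what differed.

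The assay was ATAC-seq: a transposase cuts accessible DNA and leaves sequencing adapters there. Merging peaks that shared 1 bp or more turned the 8 lists into 79045 regions, against 86616 when all 16 lists were merged. Of the 79045, 6155 were called in 1 library and were set aside, which left 72890 regions. The measure is whether a library has a peak call in a region. Read counts were not used, so the depth behind a call is unknown and list length stands in for it. The lists held 63398 ± 3166 peaks in SPOPmut EtOH and 61014 ± 2406 in Control DHT (mean ± SD, n = 4), which did not differ beyond the spread of the libraries (exact permutation p = 0.314, two-sided, as for every test here).

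SPOP recruits proteins to a cullin 3 ubiquitin ligase, which marks them for degradation, and its gene is a frequent site of point mutation in prostate cancer. Its known substrates include steroid receptor coactivators such as Ncoa3, the co-regulator Trim24 and BET proteins, and the androgen receptor has been reported among them. The androgen receptor is a transcription factor that enters the nucleus on binding DHT and occupies DNA with the pioneer factor Foxa1 and the homeobox factor Hoxb13. Classical androgen-induced genes in prostate epithelium include Fkbp5, Zbtb16, Tsc22d3 and Tmprss2. The basal cells of the prostate carry p63 (Trp63) and keratin 5, and the luminal cells keratins 8 and 18.

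Promoters show the kinds of difference that follow. A region is called separated when it is called in the 4 libraries of one group and in 0 libraries of the second. The RefSeq promoter table for GRCm38.p6, the build called mm10, holds windows from 250 bases before to 50 after a gene's start for 17492 of 21887 protein-coding genes. Regions called in SPOPmut EtOH only overlapped the windows of 98 genes, and regions called in Control DHT only those of 149 genes. The 250 bases before the start are printed for 7 of them, chosen after their values were seen, as examples of each pattern. Capitals mark matches to the motifs searched, on either strand.

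Kcne3 and Plcb1 were open in all mutant libraries and in no normal library, with or without DHT:
Kcne3 (chr7:100178433-100178682, + strand): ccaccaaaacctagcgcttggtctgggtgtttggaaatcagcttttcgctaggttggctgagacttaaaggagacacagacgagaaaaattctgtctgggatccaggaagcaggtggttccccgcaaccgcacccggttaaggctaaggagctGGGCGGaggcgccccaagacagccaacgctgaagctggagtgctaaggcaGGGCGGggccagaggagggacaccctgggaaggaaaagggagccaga
Plcb1 (chr2:134785914-134786163, + strand): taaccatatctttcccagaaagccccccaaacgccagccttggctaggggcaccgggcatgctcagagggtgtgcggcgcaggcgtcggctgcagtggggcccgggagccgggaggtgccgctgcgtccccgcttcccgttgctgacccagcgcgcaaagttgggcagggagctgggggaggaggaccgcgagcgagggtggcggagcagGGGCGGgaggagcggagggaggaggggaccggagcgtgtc
Nhsl1 and Steap4 were the reverse, open in all normal and no mutant libraries:
Nhsl1 (chr10:18469731-18469980, + strand): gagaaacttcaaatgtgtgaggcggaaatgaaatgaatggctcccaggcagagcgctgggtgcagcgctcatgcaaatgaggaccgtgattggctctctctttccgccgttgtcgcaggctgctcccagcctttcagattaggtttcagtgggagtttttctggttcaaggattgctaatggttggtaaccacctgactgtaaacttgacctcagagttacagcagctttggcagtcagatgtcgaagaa
Steap4 (chr5:7960222-7960471, + strand): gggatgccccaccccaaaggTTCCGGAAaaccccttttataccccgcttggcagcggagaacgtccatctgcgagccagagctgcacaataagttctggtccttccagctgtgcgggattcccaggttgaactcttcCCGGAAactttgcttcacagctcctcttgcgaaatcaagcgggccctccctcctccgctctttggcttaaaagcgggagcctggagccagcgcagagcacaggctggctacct
Sult1b1 and Pde6b were open in all DHT-treated and no ethanol libraries of either genotype:
Sult1b1 (chr5:87536223-87536472, - strand): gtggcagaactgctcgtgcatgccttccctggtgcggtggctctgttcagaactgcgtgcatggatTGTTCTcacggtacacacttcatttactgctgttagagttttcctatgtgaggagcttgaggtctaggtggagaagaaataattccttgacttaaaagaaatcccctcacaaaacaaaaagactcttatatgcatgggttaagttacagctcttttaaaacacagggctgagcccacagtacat
Pde6b (chr5:108388123-108388372, + strand): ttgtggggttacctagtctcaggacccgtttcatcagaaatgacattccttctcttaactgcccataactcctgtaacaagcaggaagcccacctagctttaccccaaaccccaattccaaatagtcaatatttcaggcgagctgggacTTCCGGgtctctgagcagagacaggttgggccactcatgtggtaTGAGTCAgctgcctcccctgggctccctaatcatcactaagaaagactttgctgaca
Mmp7 was called in every library of the other 3 groups and in none of the untreated mutants:
Mmp7 (chr9:7691840-7692089, + strand): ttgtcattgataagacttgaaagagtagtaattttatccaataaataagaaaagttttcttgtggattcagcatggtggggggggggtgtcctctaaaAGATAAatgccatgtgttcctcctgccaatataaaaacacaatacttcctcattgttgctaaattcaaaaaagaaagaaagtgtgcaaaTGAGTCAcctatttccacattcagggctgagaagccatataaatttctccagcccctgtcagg

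Kcne3 encodes a potassium channel subunit, Plcb1 a phospholipase C of receptor signalling, Steap4 a metalloreductase known as androgen-regulated, Sult1b1 a sulfotransferase, Pde6b a phosphodiesterase subunit of photoreceptors and Mmp7 a secreted matrix protease. The motifs searched were the androgen and glucocorticoid receptor hexamer AGAACA (also 2 of them as a palindrome, 3 bases apart), the FOX motif TGTTTAC, the AP-1 motif TGANTCA, the motif of GATA factors AGATAA, the GRHL motif AACNNGTT, the ETS motif CCGGAA and the KLF/SP motif GGGCGG, on both strands. Of the whole windows, the hexamer was in 20.6% of the 170 overlapped by Control DHT only regions, in 14.7% of the 109 overlapped by SPOPmut EtOH only regions and in 16.2% of all 21263 windows. It was in 11.1% of the 10307 windows overlapped by regions called in all 8 libraries. The palindrome was in none of the windows of either separated group and in 2 of all windows. The ETS motif was in 10.1% and 10.6% of the 2 separated groups, in 18.7% of all windows and in 31.0% of those called in all 8 libraries. These shares are descriptions and were not tested.

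As whole lists, the untreated mutants were less like treated normal organoids than like untreated normal ones. Likeness was taken as the Jaccard index, the bases that 2 lists share divided by the bases that either covers. Between SPOPmut EtOH and Control DHT it was 0.660 on average over 16 pairs of libraries (0.653 to 0.667). Within SPOPmut EtOH it was 0.828 and within Control DHT 0.813, and within-group likeness exceeded that between the groups by 0.161 (exact permutation p = 0.0286, the smallest that 4 libraries against 4 can give). Between SPOPmut EtOH and Control EtOH it was 0.695 (0.672 to 0.716).

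The mean index of a normal library with the 4 untreated mutants was 0.658, 0.657, 0.662 and 0.662 for the Control DHT libraries and 0.709, 0.679, 0.695 and 0.696 for the Control EtOH libraries. The 2 sets do not overlap, and their means differed by -0.0354 (exact permutation p = 0.0286, again the smallest possible). Each of the 4 mutant libraries showed that direction, by -0.0343 to -0.0364. Without any one of the Control DHT libraries 1 to 4 the p was 0.0571 and the difference from -0.0344 to -0.0363. The list nearest to the untreated mutants was that of mutants given DHT (0.744, 0.732 to 0.773), and Control DHT was nearest to Control EtOH (0.743). SPOPmut EtOH and Control DHT differ in both genotype and treatment. The other pair of groups that does so, Control EtOH and SPOPmut DHT, was less alike still (0.644, 0.622 to 0.666).

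**Figure D1:**
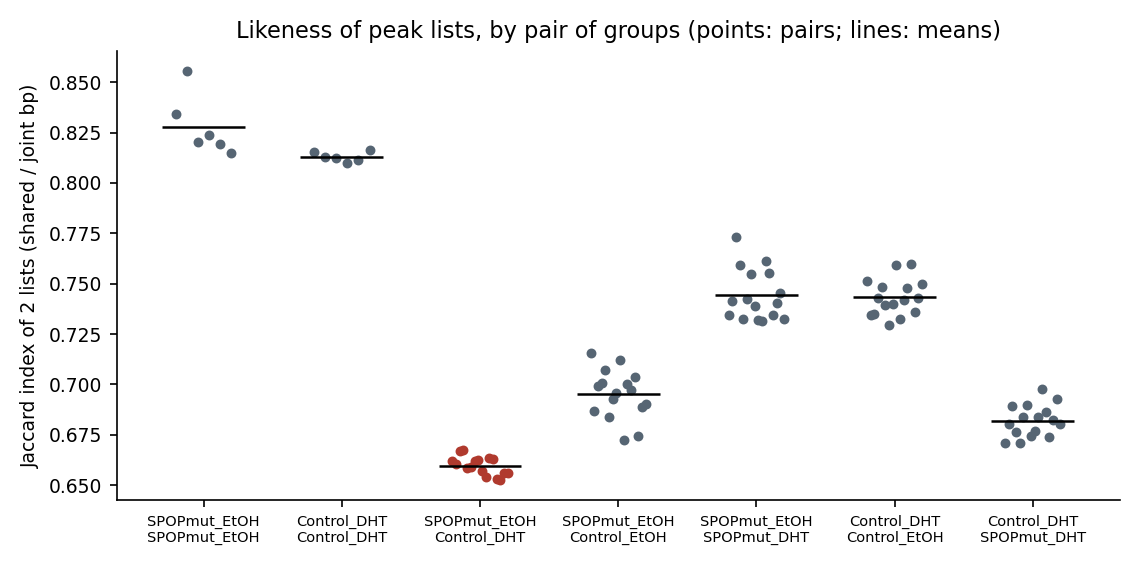
Jaccard index (shared divided by joint base pairs) of pairs of libraries, by pair of groups, with points for pairs of libraries and lines for means. Pairs within Control_EtOH, within SPOPmut_DHT and between these groups are not shown. Pairs of SPOPmut_EtOH with Control_DHT lie between 0.653 and 0.667, below every pair of SPOPmut_EtOH with Control_EtOH.

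Of the 72890 regions, 43161 were called in all 8 libraries. Regions called in all 4 SPOPmut EtOH and no Control DHT library numbered 5779, which is 7.93% of those tested. The reverse, all 4 Control DHT and no SPOPmut EtOH library, held for 4987 regions or 6.84%. The excess of the first over the second turned when all lists were cut to the same length, with 4864 against 5155. No single region passed a Benjamini-Hochberg correction over all regions. An unadjusted exact permutation p under 0.05 was reached by 10766, and the smallest adjusted p was 0.193. The separated regions were narrower than tested regions as a whole (median 493 bp and 520 bp, against 663 bp). A width is that of merged peaks, from 4 of the 8 lists in a separated region and from up to 8 in others. The widths are therefore not like for like. The separated regions were weak calls in their own lists. Their median percentile of the deposited -log10 p was 25.3 for SPOPmut EtOH only and 30.2 for Control DHT only. Few separated regions were near gene ends, with 4.97% and 5.35% within 1 kb of one. The share was 15.8% of all tested regions and 22.3% of those called in all 8 libraries.

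The calls in the other 2 groups place each separated region by genotype and treatment. Among the 5779 regions of the untreated mutants, 1836 (31.8%) were open in all mutant and no normal libraries whatever the treatment. A pattern of treatment, open in all ethanol and no DHT libraries, was found in 213 (3.69%). A further 514 (8.89%) were called in the untreated mutants alone and 313 (5.42%) were missing from treated normal organoids alone, and 2903 had partial calls in at least 1 of the other groups. The Control DHT regions fell otherwise: 1652 of 4987 (33.1%) were open in all normal and no mutant libraries, and 1253 (25.1%) in all DHT and no ethanol libraries. Called in treated normal organoids alone were 367 (7.36%), and missing from untreated mutants alone 200 (4.01%).

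**Figure D2:**
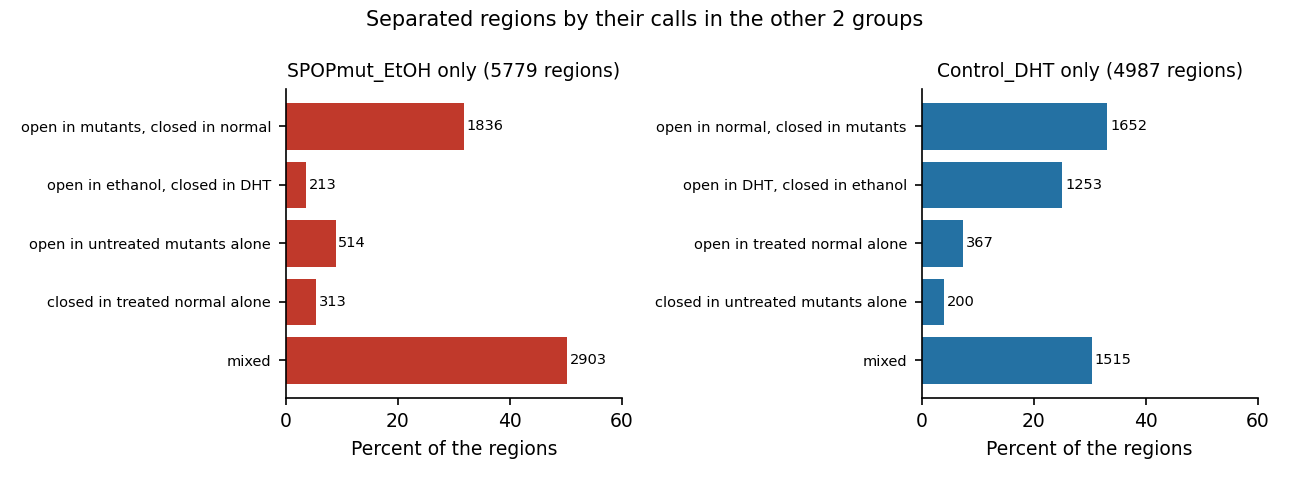
Bars give the percent of separated regions with each pattern of calls in Control_EtOH and SPOPmut_DHT, with the number of regions beside each bar. The patterns of genotype take 31.8% and 33.1%, while the patterns of treatment take 3.69% of the SPOPmut_EtOH only and 25.1% of the Control_DHT only regions.

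Untreated normal organoids placed the separated regions as follows. Of the regions of the untreated mutants, 56.7% were called in no Control EtOH library (95% Wilson interval 55.4 to 58.0, which covers counting error only) and 13.3% in all 4. Of the Control DHT regions, 38.9% were called in no Control EtOH library (37.6 to 40.3) and 42.4% in all 4. Over all tested regions these shares were 15.3% and 69.9%. Regions open in Control EtOH alone are not among those merged here, so the Control EtOH shares apply to regions that the 8 lists hold. The genotype pattern of normal organoids lay at gene ends more often (9.08% of 1652) than the treatment pattern did (3.19% of 1253), a description of counts. The same was seen at promoter windows: 116 of the 149 Control DHT only regions there had the normal pattern and 5 the DHT pattern, near Sult1b1, Pde6b, C1ra, Vmn2r117 and Gm14685 (named after their values were seen).

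To place the untreated mutants on the path that DHT takes in normal organoids, regions opened or closed by DHT were chosen in Control libraries 1 and 2 and measured in libraries not used for the choice. Of 3297 DHT-opened regions, 12.1% and 9.58% were called in the 2 held-out Control EtOH libraries and 94.4% and 89.4% in the 2 held-out Control DHT libraries. The untreated mutants called 19.99%, 16.47%, 21.99% and 16.47% of them. All 4 lie just above the untreated normal libraries and far below the treated ones. On a scale from untreated (0%) to treated normal (100%) they stood at 9.73% ± 3.37 (SD, n = 4), and at 17.0% with libraries 3 and 4 used for the choice and 1 and 2 for the measure. With DHT the mutants called 73.4% ± 5.51 of the same regions.

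The regions closed by DHT gave another picture. Of 3289 such regions, 90.1% and 87.7% were called in held-out Control EtOH and 30.3% and 23.8% in held-out Control DHT. The untreated mutants called 62.0%, 55.1%, 63.9% and 56.8%, and their position was 47.6% ± 6.75 of the way, or 29.6% with the other choice of libraries. Closed regions were weak calls in Control EtOH (median percentile 16.1, against 60.2 for regions called in both treatments), and weak calls were lost in the mutants elsewhere too. Among regions between the percentiles 10 and 20, the untreated mutants called 53.3% to 63.2% of those closed by DHT and 68.5% to 78.1% of those called in both treatments. The held-out Control EtOH libraries called 88.1% to 90.1% of the former and 95.6% to 96.8% of the latter. With 2 held-out libraries against 4, no exact permutation p can go below 0.0667, and each of these positions against either end gave that value.

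The reverse question is where DHT takes normal organoids on the path of the mutation. Of 5981 regions opened in SPOPmut EtOH against Control EtOH, Control DHT called 14.03% ± 2.90 (SD, n = 4), against 12.2% in held-out Control EtOH and 89.7% in held-out SPOPmut EtOH. Its position was 2.37% ± 3.74 (exact permutation p = 0.467 against untreated normal organoids). The smallest p that 4 libraries against 2 can give is 0.0667, so this test cannot decide whether they differ. The position of Control DHT was 7.10% with the other choice of libraries (3.70 to 10.5, the mean minus and plus the SD). At equal list length it was 6.69% (5.72 to 7.65). Both of these ranges lay above the untreated end of the scale. Of 4632 regions closed in the mutants, Control DHT called 70.01% ± 4.60, against 93.7% and 9.29% at the 2 ends, a position of 28.0% ± 5.46. So in both directions the opened regions of one factor were mostly absent under the other, and the closed regions were partly absent.

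**Figure D3:**
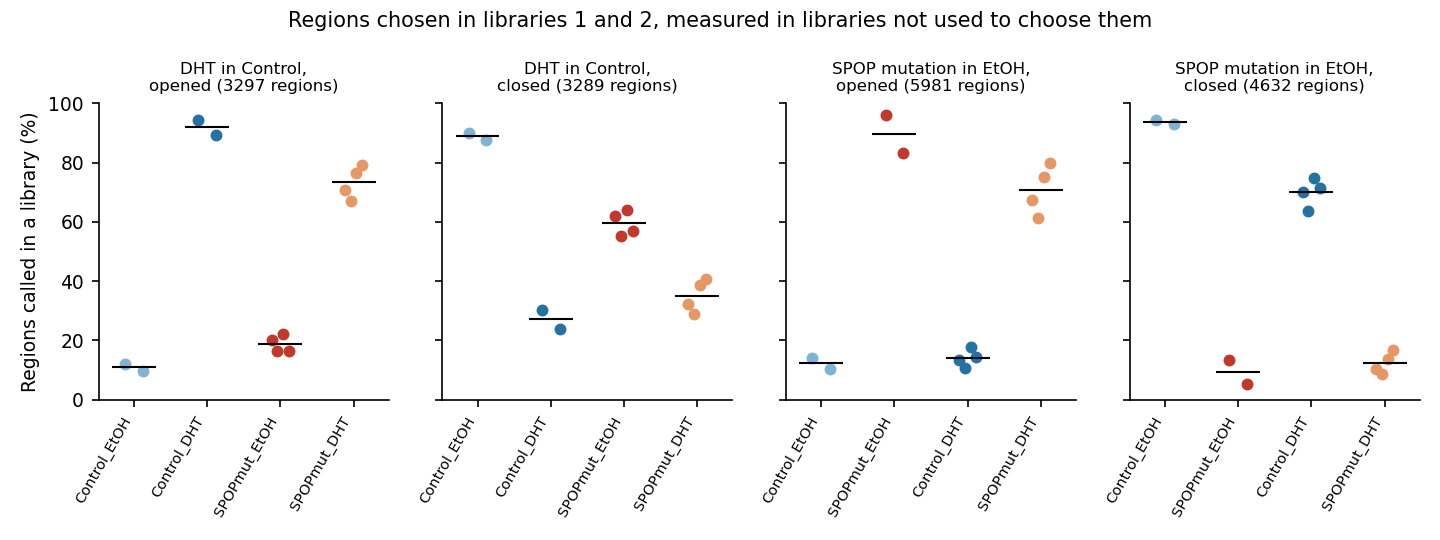
Percent of the chosen regions called in each library (points; lines are group means), for regions opened or closed by DHT in normal organoids (left 2 panels) and by the SPOP mutation in ethanol (right 2 panels). SPOPmut_EtOH calls 16.47% to 21.99% of the DHT-opened regions, and Control_DHT 10.7% to 17.7% of the mutation-opened regions.

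Genes were compared by the number of called regions assigned to them (nearest protein-coding gene within 100 kb, at least 2 regions). Of 10735 genes, 1894 had more in every SPOPmut EtOH library than in any Control DHT library (17.6%) and 1267 had fewer (11.8%). None passed the adjusted exact permutation test, where the smallest adjusted p was 0.0970, with 3161 at an unadjusted p under 0.05. The median difference over all genes was 0. Of the genes called, 59.9% had more, which became 49.4% when counts were divided by the called regions of the library and 46.8% when the call rate of each chromosome was subtracted. That is 2029 with more against 2079 with fewer in the first of these settings and 2317 against 2631 in the second, so the balance of the counts turned. In the second setting 21.6% of all genes had more and 24.5% fewer, and the counts of the lists below are given in it too. Of the 1894, the Control EtOH mean was nearer to Control DHT in 1462 (77.2%), and of the 1267 in 687 (54.2%), while in 514 (40.6%) it was nearer to SPOPmut EtOH.

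The share of called regions per chromosome moved with genotype and stands beside every gene below. Chromosome 2 held 8.37% to 8.46% of the called regions in SPOPmut EtOH libraries and 6.94% to 7.09% in Control DHT, and 7.10% on average in Control EtOH. Chromosome 15 held 5.05% against 4.27%, 18.2% more, and chromosomes 13 and 14 changed by -13.0% and -14.1%. Shares moved less on others, among them chromosomes 8 (-8.59%), 10 (-7.97%), 4 (-7.35%), 6 (-7.28%) and 7 (7.02%). Of 21 chromosomes, 20 passed (exact permutation, adjusted p = 0.03), 9 higher and 11 lower in the mutants, and chromosome X did not (adjusted p = 0.0857). Chromosome Y, among the 11 lower, rests on 17 tested regions. The part of these shares in the gene counts was not tested beyond 2 alternatives, the subtraction above and the exclusion of chromosomes 2, 13, 14 and 15. The latter left 1375 genes with more (15.9% of 8622) and 1051 with fewer (12.2%), and 4277 and 4003 separated regions.

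**Figure D4:**
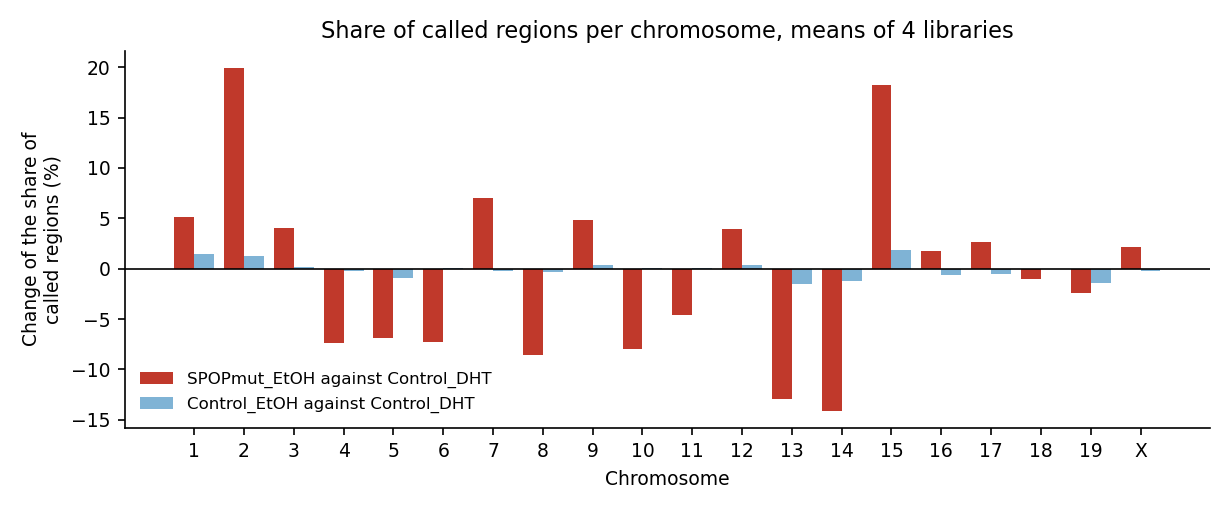
Bars give the change, in percent, of the share of called regions on each chromosome but Y (means of 4 libraries) against Control_DHT. In SPOPmut_EtOH chromosomes 2 and 15 are 19.9% and 18.2% higher and 13 and 14 change by -13.0% and -14.1%. On the chromosomes shown Control_EtOH stays within 1.87% of Control_DHT. Chromosome Y, with 17 tested regions, is not shown (-28.2% in SPOPmut_EtOH and -8.14% in Control_EtOH).

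At 3 of the 4 classical androgen-induced genes the groups separated by ligand and not by mutation. Zbtb16, which encodes a zinc finger transcription factor induced by androgens and glucocorticoids (chromosome 9), had 1, 1, 1 and 2 called regions in SPOPmut EtOH libraries 1 to 4 and 9, 8, 9 and 9 in Control DHT. Untreated normal organoids had 2, 1, 3 and 3 and treated mutants 9 in each library. The untreated mutants thus lie with the untreated normal libraries and apart from both treated groups. Of its 6 regions called in Control DHT only, 5 were open in all DHT and no ethanol libraries, among them a strong one inside the gene at chr9:48723475-48724523 (percentile 93.2).

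Fkbp5, an immunophilin gene that lowers glucocorticoid receptor activity and is a standard androgen readout (chromosome 17), had 9, 8, 9 and 8 called regions in the untreated mutants and 12, 12, 13 and 12 in treated normal organoids. In Control EtOH the counts were 7, 6, 7 and 8, and in SPOPmut DHT 13, 13, 13 and 14. Again both ethanol groups lie below both DHT groups. Of its 5 separated regions, 4 had the treatment pattern, the strongest at chr17:28424006-28425058 (percentile 91.6).

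Tsc22d3, which encodes the leucine zipper protein GILZ (chromosome X), had 10, 10, 11 and 10 against 15, 15, 18 and 17, with 11, 8, 10 and 9 in Control EtOH and 15, 15, 16 and 17 in SPOPmut DHT. All 4 of its separated regions had the treatment pattern, but in the upper 50% of each list its libraries overlapped (a difference of -1.5). Tmprss2, a membrane serine protease gene under androgen control (chromosome 16), went the other way: 28, 28, 28 and 27 in the untreated mutants, 25, 26, 24 and 25 in treated normal organoids and 23, 21, 24 and 23 in untreated ones. With the upper 50% of each list by -log10 p its difference turned, from 2.75 to -0.25 regions, and its libraries overlapped with the chromosome call rate subtracted (1.39). Treated mutants had 27, 28, 28 and 29 called regions at Tmprss2. Of its separated regions, 2 were open in all mutant and no normal libraries, and 1, called in Control DHT only, had the treatment pattern. Tmprss2 was the one of these 4 genes at which the untreated mutants lay above treated normal organoids.

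In the whole list of 40 androgen response genes, 33 were tested, 8 had more and 10 fewer regions in SPOPmut EtOH (24.2% and 30.3%, against 17.6% and 11.8% of all genes, with a median difference of 0, as over all genes). With the chromosome call rate subtracted 8 had more and 12 fewer (24.2% and 36.4%, against 21.6% and 24.5% of all genes). Besides Fkbp5, Zbtb16 and Tsc22d3, the untreated normal libraries lay nearer to the untreated mutants at Dbi and at the kinase gene Sgk1, with 18, 18, 19 and 18 in SPOPmut EtOH, 20, 21, 21 and 20 in Control DHT and 18, 18, 19 and 18 in Control EtOH. At the other 5 (Maf, Mt1, Steap4, Tnfaip8 and Zmiz1) they lay nearer to Control DHT. Zmiz1, a co-regulator of the androgen receptor (chromosome 14), had 27, 28, 29 and 26 against 38, 37, 36 and 37, with 35, 34, 35 and 35 in Control EtOH. Ank, a pyrophosphate transporter gene (chromosome 15), had 25, 23, 26 and 20 against 14, 13, 14 and 14, and 15 in each Control EtOH library.

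Some genes had fewer regions in normal organoids with DHT than in either untreated group. Esr1, the estrogen receptor alpha gene (chromosome 10), had 21, 21, 20 and 21 called regions in SPOPmut EtOH and 14, 12, 14 and 14 in Control DHT. Control EtOH had 17, 17, 19 and 17, and mutants with DHT had between 12 and 16. Both DHT groups lie below both ethanol groups.

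Inpp4b, a phosphoinositide phosphatase gene (chromosome 8), had 15, 11, 13 and 13 against 7, 8, 10 and 9, with 13 to 15 in Control EtOH and 8 to 11 in SPOPmut DHT. Its difference turned with the upper 50% of each list, from 4.50 to -1.25. Runx1, a transcription factor gene that marks proximal luminal cells (chromosome 16), had 26, 22, 27 and 24 against 19, 18, 20 and 19, with 21 to 25 in Control EtOH. In the same setting the libraries overlapped at Esr1 (2.25) and Runx1 (1.0). At the 3 genes the Control EtOH mean was nearer to SPOPmut EtOH than to Control DHT.

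Among the steroid receptors and their partner factors, 30 genes were tested, 7 had more and 7 fewer (23.3% each, against 17.6% and 11.8% of all genes). With the chromosome call rate subtracted 10 had more and 10 fewer (33.3% each, against 21.6% and 24.5% of all genes). Foxa1 (chromosome 12) had 12 in each SPOPmut EtOH library and 9, 10, 10 and 10 in Control DHT, with 10 or 11 in Control EtOH and 12 in each SPOPmut DHT library. Hoxb13 (chromosome 11) had 3, 3, 4 and 4 against 6, 5, 5 and 6, with 5, 4, 5 and 5 in Control EtOH and 5, 4, 4 and 4 in SPOPmut DHT. Its 1 separated region was open in all DHT and no ethanol libraries. Foxa1 thus had more and Hoxb13 fewer regions in SPOPmut EtOH than in Control DHT, although the Foxa1 libraries overlapped when genes were assigned within 25 kb (0.25) or 10 kb (0.75). Nfia, a nuclear factor I gene (chromosome 4), had 13, 12, 14 and 12 against 16, 17, 19 and 17, and overlapped in the upper 50% of each list (-1.5).

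Of SPOP and its reported substrates, 21 were tested, 4 had more and 3 fewer (19.05% and 14.3%, near the 17.6% and 11.8% of all genes). With the chromosome call rate subtracted 2 had more and 8 fewer (9.52% and 38.1%, against 21.6% and 24.5% of all genes). Of the 21, 8 lie on chromosomes 2, 13, 14 or 15, off which 1 had more and none fewer in raw counts. Spop itself (chromosome 11) overlapped between the groups, with 6 in each SPOPmut EtOH library and 8, 6, 7 and 7 in Control DHT (exact permutation p = 0.143); a peak count does not test the allele. Ncoa3 (chromosome 2) had 7, 7, 8 and 8 against 4, 4, 5 and 5, and 4 or 5 in Control EtOH. Trim24 overlapped (6, 6, 6 and 5 against 5, 3, 6 and 4, exact permutation p = 0.257). Gli3, a Hedgehog transcription factor gene (chromosome 13), had 19, 17, 20 and 16 against 23, 21, 24 and 25, with 18, 18, 19 and 20 in Control EtOH. Its libraries overlapped within 25 kb or 10 kb of the gene (-1.75 in both).

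**Figure D5:**
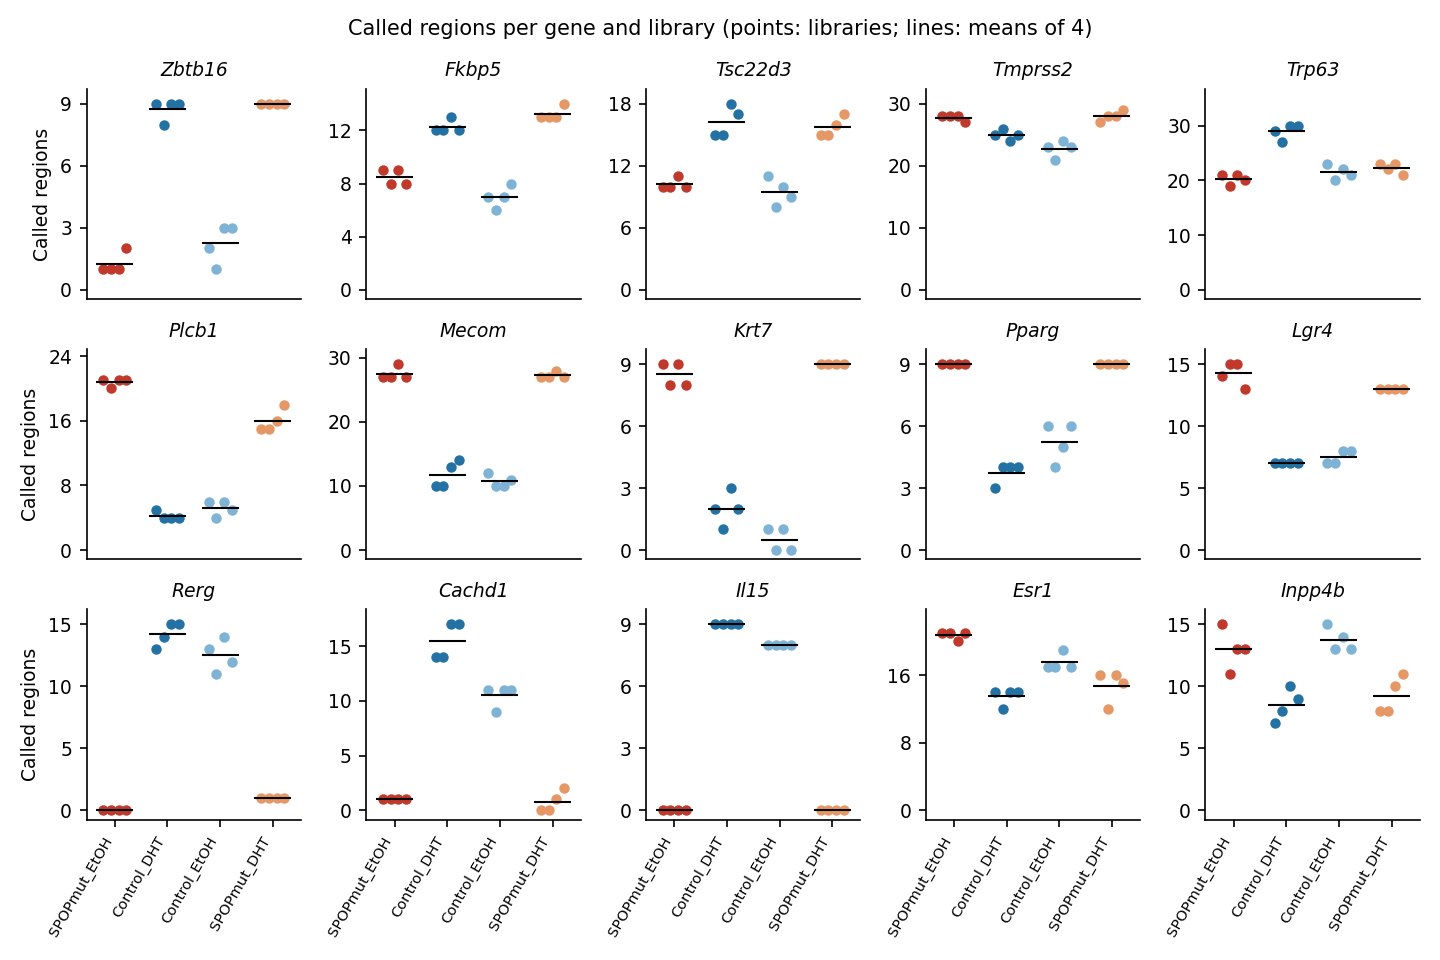
Called regions of 15 genes in each library (points) of the 4 groups, with the mean of 4 as a line. In the top row Zbtb16, Fkbp5 and Tsc22d3 are low in both ethanol groups and high in both DHT groups, while in the middle row all 5 genes are high in both mutant groups.

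The genes with the largest excess in untreated mutants mostly had it with DHT too and lacked it in normal organoids. Plcb1 (chromosome 2) had 21, 20, 21 and 21 called regions against 5, 4, 4 and 4 in Control DHT, 6, 4, 6 and 5 in Control EtOH and 15, 15, 16 and 18 in SPOPmut DHT. It held 14 separated regions, of which the one at its start is printed above. Mecom, a zinc finger transcription factor gene (chromosome 3), had 27, 27, 29 and 27 against 10, 10, 13 and 14, with 10 to 12 in Control EtOH and 27 or 28 in SPOPmut DHT. Of its 10 separated regions, 8 had the mutant pattern. Plcb1 and Mecom thus separate by genotype with no overlap.

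Thsd4, a fibrillin-associated matrix protein gene (chromosome 9), had 12, 12, 13 and 12 against 2, 1, 1 and 1, with 1 to 4 in Control EtOH. Rnd3, a small GTPase gene (chromosome 2), had 19, 20, 20 and 20 against 7, 7, 10 and 9. Tmem135 (chromosome 7), Cep128 (chromosome 12), Lrmda (chromosome 14), Ralgapa2 (chromosome 2), Kcnq1 (chromosome 7) and Zfp608 (chromosome 18) were the others of the 12 largest, with excesses of 10 to 13.25 regions. Hrh1 and Atg7, 2 of the 12 and neighbours on chromosome 6, varied within groups more than the rest did: Hrh1 had 48, 45, 50 and 43 against 25, 18, 36 and 38, and 32, 24, 51 and 50 in Control EtOH. Its difference turned from 17.25 to -0.50 at equal list length and to -2.50 within 10 kb of the gene.

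Of the genes with large deficits, some had their regions in normal organoids with and without DHT. Rerg, a Ras-like growth inhibitor gene regulated by estrogen (chromosome 6), had 0 called regions in each SPOPmut EtOH library and 13, 14, 15 and 15 in Control DHT. Control EtOH had 13, 11, 14 and 12, and each SPOPmut DHT library had 1. Il15, the interleukin 15 gene (chromosome 8), had 0 in every mutant library, 9 in each Control DHT and 8 in each Control EtOH library. Both genes lay in long runs of neighbouring separated regions, 12 in a row at chr6:137030695-137162176 and 11 at chr8:82243456-82679313, the latter reaching Zfp330. Cachd1, a calcium channel regulator gene (chromosome 4), had 1 in each SPOPmut EtOH library and 14, 14, 17 and 17 in Control DHT, with 11, 9, 11 and 11 in Control EtOH.

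Runs of 4 or more neighbouring regions separated in one direction numbered 59 in each direction. They held 301 Control DHT only and 271 SPOPmut EtOH only regions. In 211 and 186 of these all 4 Control EtOH libraries had the state of Control DHT, and in 232 and 160 all 4 SPOPmut DHT libraries had that of SPOPmut EtOH. The longest run of the other direction had 8 regions, at chr2:117637237-117744452 with no gene within reach and at chr3:53991422-54245382 near the channel gene Trpc4.

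Other deficits followed treatment in part, among them the largest, at Fggy (a difference of -16.25 regions). Fggy, a carbohydrate kinase gene (chromosome 4), had 24, 20, 23 and 19 against 36, 35, 40 and 40, with 30, 24, 30 and 30 in Control EtOH and 29, 24, 30 and 31 in SPOPmut DHT. Psd3, an exchange factor gene for Arf6 (chromosome 8), had 25, 24, 24 and 24 against 36, 35, 39 and 34, with 24 to 29 in Control EtOH. In these 2 genes the untreated normal libraries lay nearer to the untreated mutants than to Control DHT. Kcnj15 (chromosome 16), Aopep and Slc28a3 (chromosome 13), Atxn1 (chromosome 13) and Atp10b (chromosome 11) lay nearer to Control DHT. Aopep overlapped in the upper 50% of each list (-4.75).

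Trp63 (chromosome 16) had 21, 19, 21 and 20 called regions in the untreated mutants and 29, 27, 30 and 30 in treated normal organoids. Untreated normal organoids had 23, 20, 22 and 21 and treated mutants 23, 22, 23 and 21. Control DHT therefore stands above the other 3 groups, though not in the upper 50% of each list (-2.0, overlapping). Of its 9 regions called in Control DHT only, 2 had the normal pattern, 1 the DHT pattern, 2 were called in treated normal organoids alone and 4 were mixed. Few others of the basal list separated in raw counts: of 17 genes tested, Trp63 alone had fewer and the integrin gene Itga6 (chromosome 2; 20, 16, 19 and 19 against 13, 13, 13 and 14) alone had more, the latter not with the chromosome call rate subtracted (1.78, overlapping). In that setting none of the 17 had more and 5 fewer (29.4%, against 24.5% of all genes). Krt5 had 3 called regions in every library of the 4 groups.

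The luminal and proximal luminal lists held more genes with an excess in untreated mutants than with a deficit. Of 15 luminal genes 7 had more and 1 fewer (46.7% and 6.67%, against 17.6% and 11.8% of all genes), with a median of 1.5 regions. Of 14 proximal luminal progenitor genes 8 had more and 2 fewer (57.1% and 14.3%), with a median of 1.25. The keratin genes Krt7, Krt8 and Krt18 lie on chromosome 15. Krt7 had 9, 8, 9 and 8 against 2, 1, 3 and 2, with 1, 0, 1 and 0 in Control EtOH and 9 in each SPOPmut DHT library. Krt8 had 3, 2, 3 and 3 against 1 in each Control DHT library, and Krt18 6, 5, 5 and 5 against 2, 1, 1 and 1 (1.5 and overlapping within 10 kb of the gene). The epithelial factor gene Ehf (chromosome 2; 25, 24, 27 and 25 against 23, 22, 23 and 22) turned with the chromosome call rate subtracted, from 2.75 to -2.10, and overlapped in 4 other settings (0.5 to 2.5).

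Many of these genes lie on the chromosomes, Y apart, whose share of called regions moved most. Of the proximal genes tested, 8 of 14 lie on chromosomes 2, 13, 14 or 15. Off them 2 had more and 2 fewer, where 15.9% and 12.2% of all genes did. With the chromosome call rate subtracted 5 of the 14 had more and 4 fewer (35.7% and 28.6%, against 21.6% and 24.5% of all genes). Of the luminal genes 4 of 15 lie there. Off them 3 had more and 1 fewer, and with the call rate subtracted 8 had more and 2 fewer, against 21.6% and 24.5% of all genes in that setting. Atp10b, a flippase gene of proximal luminal cells (chromosome 11), was one of the 2 proximal genes with fewer: 3 in each SPOPmut EtOH library against 12, 9, 14 and 12, and 13 in each Control EtOH library.

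Of 6 secretory prostate genes tested, 2 had more and 2 fewer (33.3% each, against 17.6% and 11.8% of all genes). With the chromosome call rate subtracted 3 had more and 2 fewer (50% and 33.3%, against 21.6% and 24.5% of all genes). Mmp7 (chromosome 9) had 2 in each SPOPmut EtOH library and 4 in every library of the other 3 groups. Crisp1, an epididymal secretory protein gene (chromosome 17), had 4, 3, 4 and 4 against 1 in each normal library, and overlapped within 25 kb (0.75). The secretory marker Pbsn had fewer than 2 regions and was not tested. Of 8 seminal vesicle and urothelium genes, 2 had more and 3 fewer (25% and 37.5%), and with the call rate subtracted 3 and 3 (37.5% each). Pparg, a lipid-sensing nuclear receptor gene (chromosome 6), had 9 in every mutant library against 3, 4, 4 and 4 in Control DHT and 4 to 6 in Control EtOH, and the uroplakin gene Upk1b (chromosome 16) had 2 in every mutant and 0 in every normal library. Grhl3 (chromosome 4) had 8 in each SPOPmut EtOH library against 11, 12, 11 and 12, with no difference within 10 kb of the gene (0).

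Markers of cells outside the epithelium were compared in the same way. Over all genes 17.6% had more and 11.8% fewer, and 21.6% and 24.5% with the chromosome call rate subtracted. Of 12 endothelial genes 7 were tested, none had more and 3 fewer (Cdh5, Pecam1 and Tek; 42.9%, against 11.8% of all genes), with list sums of 41 to 48 in SPOPmut EtOH, 49 to 52 in Control DHT and 48 to 50 in Control EtOH. With the chromosome call rate subtracted 5 of the 7 had fewer (71.4%, against 24.5%). Of 18 stromal genes 9 were tested, 2 had more and 2 fewer (2 and 3 with the call rate subtracted), with sums of 23 to 28 and 26 to 31. Of 12 immune genes 3 were tested and Ptprc (5 in each SPOPmut EtOH against 3 in each Control DHT library) had more (1 more and 1 fewer with the call rate subtracted). Of 13 neuroendocrine genes 6 were tested and Foxa2 (2, 1, 2 and 1 against 0 in each normal library, chromosome 2) had more, though with overlap when no filter on libraries was used (1.25); with the call rate subtracted 1 had more and none fewer. Their part in the differences above was not tested. Fewer cells of a type and less accessible DNA per cell cannot be told apart in such bulk libraries.

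Signalling lists were mixed. Over all genes 17.6% had more and 11.8% fewer, and with the chromosome call rate subtracted 21.6% and 24.5%. Of 21 Wnt, Notch and Hedgehog genes 4 had more and 2 fewer (4 and 3 with the chromosome call rate subtracted): the R-spondin receptor gene Lgr4 (chromosome 2) had 14, 15, 15 and 13 against 7 in each Control DHT library, and Tcf7l2 (chromosome 19) 19, 15, 19 and 16 against 23, 21, 27 and 26. Of 23 PI3K and mTOR genes 5 had more and 4 fewer (21.7% and 17.4%), a balance that turned to 6 and 8 with the call rate subtracted. Those with fewer included Pik3r1 (chromosome 13; 8, 6, 9 and 6 against 15, 13, 13 and 13) and Irs2 (chromosome 8; 10, 10, 10 and 9 against 15, 14, 16 and 15). Tcf7l2 (-0.50) overlapped in the upper 50% of each list and Irs2 (-0.50) within 10 kb of the gene. At Pik3r1 and Irs2 the untreated normal libraries lay nearer to Control DHT. Of 16 AP-1 and immediate early genes 2 had more (3 and 2 with the call rate subtracted) and 1 fewer, Fos (chromosome 12), with 10 in each SPOPmut EtOH library against 12, 14, 13 and 13 (-1.0 and overlapping in the upper 50% of each list).

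Of 13 interferon and inflammation genes 4 had more, among them the chemokine gene Ccl20 (chromosome 1; 11, 8, 11 and 10 against 6, 7, 7 and 6), and 2 fewer, Il15 and Nfkb1 (30.8% and 15.4%, against 17.6% and 11.8% of all genes). With the chromosome call rate subtracted 4 had more and 5 fewer (30.8% and 38.5%, against 21.6% and 24.5% of all genes). Of 12 cell cycle genes 3 had more and 3 fewer (3 and 4 with the call rate subtracted), with Ccnd1 (chromosome 7) at 9 in each SPOPmut EtOH library against 7, 8, 8 and 8 and at 9 in each Control EtOH library. Of 11 housekeeping genes 3 had more and none fewer, among them Actb (chromosome 5) with 9 in each SPOPmut EtOH library and 6 in each normal library. That is 27.3% of the list, against 17.6% of all genes, and with the call rate subtracted 3 had more and 2 fewer. Ccl20 (0.75) and Ccnd1 (0) overlapped within 10 kb of the gene, and Actb (0) in the upper 50% of each list.

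The strongest separated regions by their place in their own lists were described for each group. In the untreated mutants they lay inside the transporter gene Abcc5 (chr16:20413706-20415041, median percentile 90.7), inside Nipal2 (chr15:34582434-34583480, 88.9), inside Kcne3 (chr7:100178324-100179236, 88.6), near Lrrc6 (chr15:66507852-66508678, 88.5) and near Mettl11b (chr1:163680907-163683164, 88.1). Those at Kcne3 and Mettl11b were in no Control EtOH library, and all 5 were in all 4 SPOPmut DHT libraries. In Control DHT the strongest were 2 regions with no gene within 100 kb (chr19:33061844-33063193, percentile 98.3, and chr11:112610436-112611812, 97.2), 1 near the protease inhibitor gene Spink4 (chr4:40886295-40887790, 95.8), 1 inside Hsf2bp (chr17:31979548-31980675, 94.9) and 1 near Reps1 (chr10:18047193-18048059, 94.9). The Spink4 region was in no Control EtOH library and had the treatment pattern. The chr11 region was in 4 Control EtOH libraries, the Reps1 region in 3, and the chr19 and Hsf2bp regions in 1 each. All 5 were in all 4 SPOPmut DHT libraries. So each of these 5 strong regions missing from untreated mutants was called in mutants given DHT.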

How the data were processed

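The 8 lists of SPOPmut EtOH and Control DHT were compared, with the other 8 lists used to place differences. The submitters' processing notes name the mm10 build, Bowtie2 2.3.4.1 (an aligner), SAMtools 1.8 and Genrich (a peak caller), with no parameters; each library has a peak list of its own. The deposited -log10 p of each peak, the authors' own value, ranked peaks within a list; the percentile given is of that rank. The deposited signal (never under 200) and the deposited score (at most 1000) were not used for any comparison. Group means of signal tracks were not used here.

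Peaks overlapping by 1 bp or more were merged, and regions called in at least 2 of the 8 libraries were kept. Each region went to the nearest protein-coding gene body within 100 kb in the RefSeq table for GRCm38.p6, which gives no strand or exons; 91.6% were assigned. Promoter sequences are RefSeq's, for the same build. Of 348 entries in 18 gene lists 347 matched. Tests were exact permutations over libraries, with Benjamini-Hochberg adjustment at 0.05, using SciPy 1.17.1, NumPy 2.4.6 and pandas 2.3.3 (Python 3.11.15; plots by Matplotlib 3.10.9), and the merging and tests were checked on simulated data. A gene was called when its library counts did not overlap between the groups. Genes named are the 12 with the largest difference in each direction, 3 per list and a fixed set of androgen, SPOP and lineage genes, and regions the 5 with the highest percentile in each direction; other genes were named after their values were seen. A few genes that this rule takes are not reported here. The comparison, lists and rules were chosen with earlier results of these data known. No lists were identical: libraries of a group differed at 5.32% to 9.90% of regions. Alternatives changed the overlap for merging, the peaks kept, the filter on libraries, the assignment of genes, the scaling and the libraries entered.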

Additional observations from a re-analysis of the deposited data

Results flagged for a closer look

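Within each group of 4 libraries, the highest or lowest was compared with the rest by Dixon's ratio at its 95% critical value, over 222 groups of values. For continuous normal values chance alone sets apart about 1 in 20 groups. The gene values here are counts with ties, for which that rate is not known. In all, 12 groups were found. For counts of regions, a library that stood apart by 1 region was passed over, since that is the smallest step. In the genes, 1 library differed from 3 equal ones by 2 or 3 regions. In SPOPmut EtOH the odd library had 29 called regions at Mecom, 21 at Ralgapa2, 20 at Tmem135 (high) and 12 at Nfkb1 and 19 at Myc (low). In Control DHT it had 8 at Tmem135, 13 at Zfp608 and 15 at Pik3r1 (high) and 12 at Esr1, 13 at Lrmda and 18 at Wnt7b (low). The share of called regions on chromosome 7 was 6.25% in 1 SPOPmut EtOH library and 6.23% in the others.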

How the results depend on the processing

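Both Jaccard results kept their direction in every alternative run for them. The balance of the counts did not: at equal list length 4864 SPOPmut EtOH only and 5155 Control DHT only regions were separated, and genes with fewer outnumbered those with more in the 2 scalings below. Regions called in at least 3 libraries of one group and at most 1 of the other numbered 9688 and 7660, and 51.5% and 34.96% of these were in no Control EtOH library. With the upper 50% of each list, 3226 and 2844 regions were separated and 1256 genes had more. Shares of called regions gave 2079 genes with fewer and 2029 with more, and the chromosome call rate 2631 and 2317. Within 5 kb of a gene end lay 20.8% and 16.2% of the separated regions. At equal list length 59.4% of the SPOPmut EtOH only regions were in no Control EtOH library, and 54.6% with chromosomes 2, 13, 14 and 15 excluded, an alternative chosen after seeing the data, as were the percentile bands of the DHT-closed regions. With libraries 3 and 4 used for the choice, the positions of SPOPmut EtOH were 17.0% and 29.6%, and that of Control DHT on the opened regions 7.10%; at equal list length the DHT-closed position was 40.8% and the mutation-opened one 6.69%. The causes were not tested. Leaving out 1 library gave 5914 to 6648 and 5088 to 5697 separated regions, 1910 to 2224 genes with more and 1290 to 1529 with fewer, Jaccard differences of 0.157 to 0.164 and -0.0407 to -0.0306 (exact permutation p 0.0286 to 0.0571), positions of 8.39% to 10.7%, 45.3% to 50.03%, 0.798% to 3.796% and 25.6% to 29.9%, 18 to 19 chromosomes and a list length difference of 1181 to 3351 peaks. Separated regions and genes rise because 3 libraries are easier to separate.

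Whether the replicate numbers pair the libraries is not settled. Same-numbered ones correlated at -0.00419, 0.0383, 0.0492 and -0.00381 in their deviations from the group means. Those with different numbers ran from -0.0516 to 0.0158, so the 2 highest values were same-numbered, though all were weak. With a replicate block the Jaccard difference from Control EtOH stayed at -0.0354 and its exact p was 0.125, the smallest that 4 pairs give, so 0 chromosomes passed; 2217 genes had more and 1480 fewer in all 4 pairs, and no count of regions changed.

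Over 84 named genes, 1461 of 1552 alternative values kept their call, 54 lost it, 30 gained one and 7 turned. With the upper 50% of each list the differences became -0.75 at Dusp1, -1.25 at Inpp4b, -0.25 at Tmprss2 and -1.25 at Twist2. Ehf became -2.1 with the chromosome call rate subtracted, and Hrh1 -2.5 within 10 kb and -0.5 at equal list length. Depth is unknown, so a region not called may be open below the caller's threshold.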

Other observations

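Further promoters, named after their values were seen, separated by genotype whatever the treatment. Those of the glutathione transferase genes Gsta3 (chr1, median percentile 79.1) and Gstm4 (chr3, 53.5), of the DNA repair gene Mgmt (chr7, 76.0) and of Nfatc2 (chr2, 70.7), which encodes a calcium-regulated transcription factor, were called in all 8 mutant and no normal libraries. Those of the LIM homeobox gene Isl1 (chr13, 80.3), the growth arrest gene Gas1 (chr13, 73.7), the heparin-binding factor gene Ptn (chr6, 71.6) and the TNF receptor gene Tnfrsf1b (chr4, 71.6) were called in all 8 normal and no mutant libraries. The promoter of the smooth muscle actin gene Acta2 (chr19, 13.6) was called in the 4 untreated mutant libraries alone, as a weak call.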
